A study of Mus musculus with 32 samples.

Results

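Oxidative phosphorylation subunits encoded in the nuclear genome, together with a few genes that share their names, were followed through 8 groups of a mouse microglial cell line. Members were chosen by symbol: names starting with Ndufa, Ndufb, Ndufc, Ndufs, Ndufv, Uqcr, Cox4, Cox5, Cox6, Cox7, Cox8 or Atp5, plus Sdha, Sdhb, Sdhc and Sdhd. Of 45706 genes in the table, 96 carried such a name. The 4 names of pseudogenes (containing -ps) and 6 genes with a count above 0 in fewer than 16 of the 32 libraries were left out, so that 86 members remained. No fold change was used to choose them. Just inside the limit was Cox7a1, counted in 31 of 32 libraries, and all other members were counted in 32. Just outside were Cox4i2, counted in 10 libraries with at most 1 read, Cox8b in 9 with at most 5, Ndufa4l2 in 9 with at most 2 and Cox6b2 in 2 with at most 1, while Cox8c and Cox7b2 were at 0 throughout. These 6 are paralogs known from other tissues.

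By role, the members comprised 36 subunits of complex I (7 core and 29 accessory), 4 of complex II, 8 of complex III, 13 of complex IV, 15 of complex V and 10 genes that are not subunits. The latter were 7 complex I assembly factors (Ndufaf genes), the supercomplex factor Cox7a2l, and Atp5s and Atp5sl. All 86 are annotated as protein coding, lie on 19 chromosomes and include 3 genes on the X chromosome. Their transcripts are short. The principal transcript had a median length of 870 bases (371 to 4715), against 2394 bases over 21519 coding genes, and 49 members were under 1000 bases, compared with 15.6% of coding genes. The encoded proteins ranged from 52 to 727 residues.

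Oxidative phosphorylation takes place in the inner mitochondrial membrane. Complexes I and II feed electrons from NADH and succinate to ubiquinone, complex III passes them to cytochrome c and complex IV to oxygen, and the protons pumped by complexes I, III and IV drive the ATP synthase, complex V. Apart from complex II, each complex joins subunits encoded in the nucleus with subunits encoded in mitochondrial DNA. Macrophages and microglia exposed to bacterial lipopolysaccharide (LPS) are known to shift towards glycolysis. MicroRNAs (miRNAs) act on other transcripts, mainly by pairing bases 2 to 8 of the mature strand, the seed, with sites in 3′ untranslated regions.

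The cells were BV-2, an immortalised mouse microglial line, without any genetic change beyond that of the line (genotype WT). They received 1 of 4 synthetic RNAs, a scramble negative control or a mimic of 1 of 3 miRNAs (miR-7a-5p, miR-146a-5p or miR-29a-3p), and either vehicle or LPS at 10 ng/ml for 24 h. The labels place LPS before the transfection and the study's methods place it after, so the order is uncertain. Each of the 8 combinations had 4 libraries, which the study's methods call independent experiments, and all cells were transfected. All groups come from 1 cell line, so no animal or donor varies. The labels name the cell type Glioblastoma, but microglial and macrophage markers such as Csf1r, Itgam and Cd68 were high. Over the 32 libraries they were at 306 to 1119, 108 to 309 and 503 to 1913 CPM. CPM are counts scaled to a common effective library total by the trimmed mean of M values. Aif1 (4.19 to 27.4 CPM) and P2ry12 (0.853 to 13.3 CPM) were lower. Among the listed astrocyte and glioma markers, Slc1a2 reached 1.27 CPM. Gfap, Olig2, Sox2, Aldh1l1, Aqp4, S100b and Slc1a3 never exceeded 0.859 CPM. Tmem119 and Cx3cr1, markers of microglia in tissue, were low or 0 (at most 7.64 and 6.87 CPM).

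The miRNAs delivered and the seed matches that carry later results are shown because direct targets commonly hold such a match. Below are the mature sequences from RefSeq (GRCm38.p6), 5′ to 3′, with the seed in capitals. miR-7a-5p is made from 2 loci, chr7:78888295-78888317 on the plus strand and chr13:58392841-58392863 on the minus strand. miR-29a-3p lies at chr6:31062673-31062694 and miR-146a-5p at chr11:43374435-43374456, both on the minus strand.
miR-7a-5p: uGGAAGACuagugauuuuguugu
miR-29a-3p: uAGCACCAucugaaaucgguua
miR-146a-5p: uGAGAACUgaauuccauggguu

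No pair of these seeds is the same. In the longest 3′ untranslated region annotated for each gene, which in 38 of 86 members belongs to a transcript other than the principal one, 7-base matches to seed bases 2 to 8, or to bases 2 to 7 followed by A, were searched. For miR-7a the letters were GTCTTCC or TCTTCCA, for miR-29a TGGTGCT or GGTGCTA, and for miR-146a AGTTCTC or GTTCTCA. Matches were found in 6 of 86 members for miR-7a (7.0%, against 25.0% of 20774 genes), in 4 for miR-29a (4.7% against 17.2%) and in 8 for miR-146a (9.3% against 19.3%). In principal transcripts alone, which have such a region in 85 members, the matches were in 5 for miR-7a (20.2% of 19726 genes), in 3 for miR-29a (14.3%) and in 5 for miR-146a (15.6%). The untranslated regions of the members are short, with a median of 291.5 bases against 1091 for the longest, and of 175 against 762 in principal transcripts. Among longest regions of at most 500 bases, a match was held by 3 of 61 members for miR-7a (5.6% of genes), by 0 for miR-29a (3.1%) and by 2 for miR-146a (4.0%). The 3 matches that cover both patterns at once (8 bases) are printed 5′ to 3′ with the match in capitals, and lie in Uqcrq (chr11:53427922-53430831, minus strand), Ndufb8 (chr19:44548572-44555440, minus strand) and Sdhc. Those of Uqcrq and Sdhc are in the principal transcript. That of Ndufb8 is in a longer annotated transcript and not in the principal one, since the latter ends 80 bases after its stop codon, and the use of the longer one was not measured.
Uqcrq, miR-146a, bases 942 to 949 of the untranslated region: ctagtactaaaAGTTCTCAgaagagagcaa
Ndufb8, miR-146a, bases 936 to 943: taacagtctaaAGTTCTCAgatttatagtg
Sdhc, miR-29a, bases 1112 to 1119: tgctttgtttgTGGTGCTAggggtcaaagc

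The libraries held 1207404 to 20668447 counts in total. Members made up 0.665 to 1.39% of the counts of a library. Small structural RNA genes took under 19% of the counts in 29 libraries, but 35.1 to 38.7% in replicates 2 to 4 of vehicle miR-7a, against 4.31% in its replicate 1. The counts, medians and named members of comparisons that use that group are therefore also given without those 3 libraries, which leaves 1 vehicle miR-7a library. The values were deposited without most of their decimal marks, which were restored before use. One value each of Atp5g1, Uqcrb and Ndufa13 could not be restored with confidence, and these genes have no value in comparisons that use the library concerned. Reads of near-identical genes cannot be separated: 17 members share over 10% of their 75-base stretches with another transcript, among them Atp5g2 (100%), Atp5l (63.4%), Cox7c (50.4%), Ndufb2 (18.6%) and Cox5b (17.2%), so their values are uncertain.

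In vehicle scramble cells, the members covered a wide range of levels. Levels are compared between genes per kilobase of the principal transcript (CPM per kb, mean ± SD, n = 4). Cox4i1, a complex IV subunit, was highest at 861 ± 131, followed by Cox8a at 716 ± 254, the catalytic ATP synthase subunit Atp5b at 704 ± 139, the c ring gene Atp5g2 at 666 ± 402 and Atp5e at 562 ± 178. These neighbours in the order lie within each other's spread. By complex, the median level per kb was 89.2 for complex I, 100 for complex II, 157 for complex III, 239 for complex IV and 263 for complex V. Complex I assembly factors were far lower, with a median of 8.45 CPM per kb. Ndufaf4 had the lowest level of all members, 1.94 CPM per kb, below Ndufaf6 and Atp5s, with 4.52 and 4.61. The order of the members was nearly the same in LPS scramble cells (Spearman's rho 0.96 across 86 genes, which share libraries and lengths).

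To see how LPS alone moved the members, LPS scramble libraries were compared with vehicle scramble libraries. Most subunits were lower with LPS, and the lower calls were spread over complexes I, III, IV and V. Of 85 members tested, 12 fell and 1 rose (limma-voom, Benjamini-Hochberg adjusted p under 0.05 and a log2 fold change beyond 0.3), or 15.3%, while 18.1% of all 12343 genes were called, 8.42% lower and 9.63% higher. In this fit, which did not pair libraries by replicate number, the share of members called was near that of all genes. The split between directions was not: 74 of 85 lay below 0, with a median log2 fold change of -0.44 against 0.01 over all genes tested. With the replicate number as a block, 42 of 85 members fell and 1 rose. That is a larger share than among all genes, of which 30.3% were called, 15.6% lower and 14.7% higher. In bulk RNA, fewer cells of a type and less RNA per cell cannot be told apart.

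**Figure D1:**
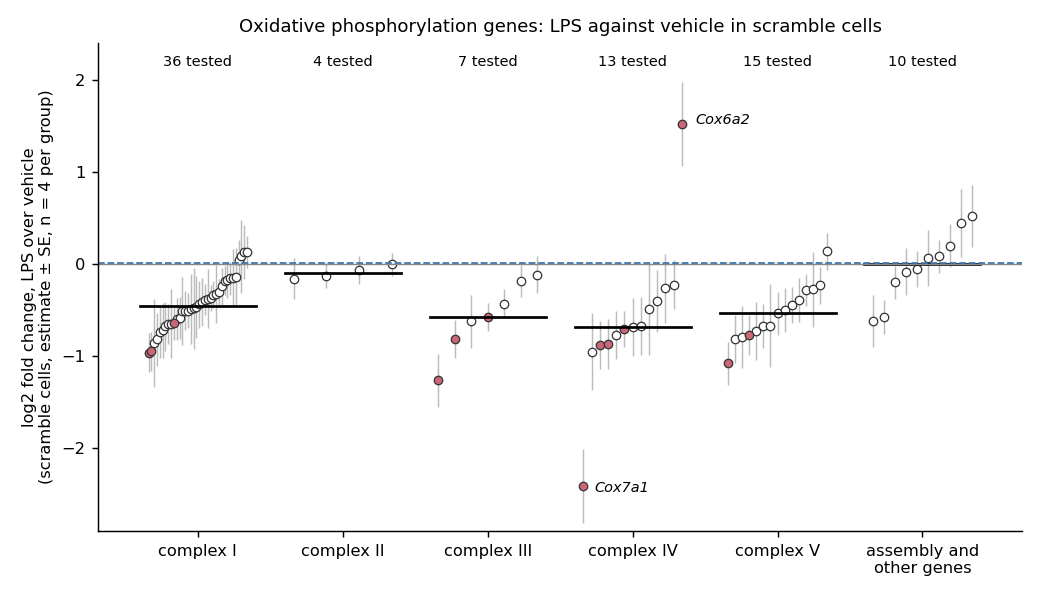
Log2 fold change between LPS scramble and vehicle scramble (y axis) for each of 85 members, grouped by complex (x axis); points are limma-voom estimates with bars of 1 SE, n = 4 libraries per group, filled points were called, black bars are group medians and the dashed line is the median of all genes tested (0.01). Complexes I, III, IV and V lie mostly below 0, while complex II and the genes that are not subunits lie around 0.

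In every comparison below the same call rule holds, and a log2 fold change is given ± its SE. The summed level of the members was 10868, 10146, 17475 and 13224 CPM in vehicle scramble replicates 1 to 4 and 9606, 8476, 10445 and 8321 CPM in LPS scramble. The groups overlapped, since LPS replicate 3 exceeded vehicle replicate 2. The share of counts in structural RNA genes was 6.71, 11.9, 10.4 and 9.78% in the vehicle and 5.81, 2.94, 4.24 and 3.41% in the LPS libraries, without overlap. With those genes left out before scaling, 17 members were called and the median was -0.46. The share of all genes called in that fit is not given here. In 15 of 85 members every LPS library was below every vehicle library, against 11.3% of all genes, and in 0 members was it above, against 11.8% of genes.

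Complex I, the NADH dehydrogenase, had a median of -0.45 over 36 members, with 3 called lower and 33 not called. The 3 were accessory subunits of the membrane arm. Ndufb2 was at 32.1, 35.1, 62.3 and 41.3 CPM in vehicle and 27.02, 19.3, 22.8 and 18.1 CPM in LPS replicates 1 to 4. All LPS libraries were below all vehicle libraries, and the log2 fold change was -0.96 ± 0.21 (adjusted p = 0.00939). Ndufb11, a gene on the X chromosome, was at 83.9, 90.1, 148 and 117 CPM in vehicle and 65.1, 43.3, 69.1 and 48.1 CPM with LPS, again without overlap (-0.95 ± 0.21, adjusted p = 0.0106). Ndufb8 fell by 0.64 ± 0.18 (adjusted p = 0.0307). The 7 core subunits had a median of -0.33 and no call, or 2 lower with the block, which called 17 of the 36 members lower. Among them, Ndufs1, which carries iron-sulfur clusters, had a log2 fold change of 0.13 ± 0.17, and Ndufv1, which binds NADH, of -0.33 ± 0.15 (adjusted p = 0.137) although its groups did not overlap. Ndufa4, named as a complex I gene but found with complex IV, had -0.40 ± 0.33.

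Complex II, the succinate dehydrogenase that is also an enzyme of the citric acid cycle, had the median closest to 0 of the 5 complexes. Its flavoprotein subunit Sdha was at 318, 308, 293 and 282 CPM in vehicle and 310, 283, 302 and 286 CPM in LPS libraries. The groups overlapped almost fully, with a log2 fold change of -0.0032 ± 0.13. Sdhb, the iron-sulfur subunit, had -0.07 ± 0.15, and the membrane anchors Sdhc and Sdhd had -0.16 ± 0.22 and -0.13 ± 0.13. None of the 4 was called, and the median was -0.10.

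In complex III, the cytochrome bc1 complex, 3 of 7 tested members fell without the replicate block and the median was -0.57. Uqcr11, a small subunit, was at 69.4, 59.1, 148 and 113 CPM in vehicle and 46.3, 26.1, 49.0 and 37.0 CPM in LPS libraries. No LPS library reached the lowest vehicle library (-1.26 ± 0.29, adjusted p = 0.0118). Uqcr10, another small subunit, fell by 0.81 ± 0.20 (adjusted p = 0.0183). The Rieske iron-sulfur protein Uqcrfs1 was at 194, 179, 261 and 193 CPM in vehicle and 154, 125, 138 and 130 CPM with LPS. It fell by 0.57 ± 0.15 (adjusted p = 0.0247) and its groups did not overlap. The core subunit Uqcrc1 had -0.43 ± 0.16 without the replicate block (adjusted p = 0.0785) and was called with it (-0.43, adjusted p = 0.030).

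Complex IV, cytochrome c oxidase, had the lowest median, -0.68 over 13 members, with 4 called lower and 1 higher without the replicate block. Cox4i1 was at 619, 589, 784 and 572 CPM in vehicle and 500, 334, 444 and 286 CPM in LPS libraries. All LPS values were lower (-0.70 ± 0.19, adjusted p = 0.0286). Cox8a was at 222, 380, 563 and 410 CPM and with LPS at 188, 152, 275 and 209 CPM. LPS replicate 3 exceeded vehicle replicate 1, and the log2 fold change was -0.88 ± 0.26 (adjusted p = 0.0372). Cox5b had -0.87 ± 0.27 (adjusted p = 0.044) with overlapping groups. Cox6a1, Cox7a2 and Cox5a had -0.95 ± 0.42, -0.68 ± 0.31 and -0.27 ± 0.37 and were not called; with the block the adjusted p was 0.0148, 0.00571 and 0.114.

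In complex V, the ATP synthase, 2 of 15 members fell without the replicate block and the median was -0.53. Atp5e, the small epsilon subunit of the catalytic part, was at 144, 211, 312 and 280 CPM in vehicle and 101, 85.2, 137 and 107 CPM in LPS libraries. The groups did not overlap (-1.08 ± 0.23, adjusted p = 0.0092). Atp5l fell by 0.77 ± 0.22 (adjusted p = 0.0335). The catalytic subunits Atp5a1 and Atp5b had -0.44 ± 0.20 and -0.28 ± 0.17 and were not called, and Atp5a1 was called with the block (-0.45, adjusted p = 0.0408). The 3 genes for the c ring, which make the same mature protein, had similar values and were not called: Atp5g1 -0.79 ± 0.33, Atp5g2 -0.67 ± 0.45 and Atp5g3 -0.73 ± 0.31, all called with the block (adjusted p = 0.00288, 0.0311 and 0.00437).

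The 10 genes that are not subunits had a median of 0.01 and none was called, with 1 lower with the block. The 7 complex I assembly factors among them, which join the complex while it is built but are absent from the finished enzyme, had a median of 0.06.

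The muscle paralogs of complex IV had the largest changes among the called members, in opposite directions. Cox6a2, the heart and skeletal muscle form of subunit 6a (chr7:128205435-128206387, minus strand, GRCm38), was at 3.00, 7.08, 16.3 and 17.9 CPM in vehicle scramble and 21.5, 17.9, 35.3 and 30.3 CPM in LPS scramble. The lowest LPS library was just below the highest vehicle library (17.88 against 17.93 CPM). Cox6a2 rose by 1.52 ± 0.46 (adjusted p = 0.0395), and by 1.24 with the block (adjusted p = 0.00844). Without vehicle replicate 1 the value was 0.92 and the call was lost. It was also lost without vehicle replicate 2 (1.44) or LPS replicates 1, 3 or 4 (1.57, 1.35 and 1.43), and edgeR did not call it. Its exons overlap Itgad on the other strand. Itgad was at 0 to 1.14 CPM in all libraries, and the part of overlapping reads in the values of Cox6a2 was not tested.

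Cox7a1, the muscle form of subunit 7a (chr7:30184144-30186078, plus strand), was at 3.66, 4.00, 7.22 and 7.49 CPM in vehicle scramble and 1.11, 0.49, 1.39 and 1.25 CPM in LPS scramble. These correspond to 13 to 61 reads in vehicle and 3 to 26 reads in LPS libraries. The groups did not overlap, and Cox7a1 fell by 2.41 ± 0.40 (adjusted p = 0.00194), a call kept in all fits that left out 1 library. In all 4 LPS groups its level was at most 1.72 CPM, and 1 library (LPS miR-146a replicate 4) was at 0, below 3 counts.

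Per kilobase, Cox6a2 made up 2.25, 2.10, 2.91 and 4.12% of Cox6a1 and Cox6a2 together in vehicle scramble and 14.3, 16.2, 11.9 and 12.4% in LPS scramble. In the other vehicle groups this share was 2.57 to 5.25%, and all LPS groups lay above every vehicle library. In LPS miR-7a it was 9.25, 9.59, 7.23 and 8.82%, below each library of the other LPS groups. In LPS miR-29a it was 14.1 ± 2.81% and in LPS miR-146a 13.2 ± 3.14% (mean ± SD, n = 4). Cox7a1 made up 5.53 ± 0.773% of Cox7a1 and Cox7a2 in vehicle scramble and 1.77 ± 0.439% in LPS scramble.

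**Figure D2:**
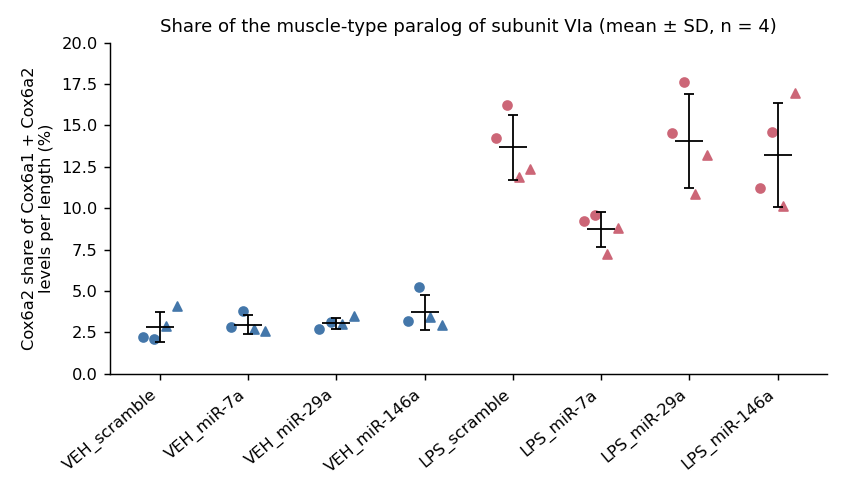
Share of Cox6a2 in the summed per-kilobase level of Cox6a1 and Cox6a2 (percent, y axis) in each library of the 8 groups (x axis), with mean and SD, n = 4. Vehicle libraries lie between 2.10 and 5.25%, LPS miR-7a between 7.23 and 9.59% and the other LPS libraries at 10.2% or more.

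Transcript length moved with the fold change. Across the 85 members, Spearman's rho between principal transcript length and log2 fold change was 0.52, against 0.20 over 10630 other genes (genes share libraries and are not independent). Members under 600 bases had a median of -0.73 (n = 22), against -0.52 for other genes of that length. From 600 to under 1000 bases the medians were -0.50 (n = 26) and -0.29, from 1000 to under 2000 bases -0.19 (n = 28) and -0.10, and from 2000 bases -0.16 (n = 9, with Atp5g1 at -0.79 and Atp5a1 at -0.44 among them) and 0.08. Members were below other genes in each length class, and shorter genes were lower both among members and among other genes. The 4 transcripts of complex II are all over 1000 bases. The part of length in the result was not tested.

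Replicate numbers also moved with the members. Across the 8 groups, 14 members were over 0.5 log2 higher and 2 over 0.5 lower in replicates 3 and 4 than in replicates 1 and 2, together 18.6% of members against 7.90% of genes. Ndufv3 (1.31), Atp5g2 (1.10), Cox6b1 (1.09), Cox6a1 (0.88) and Cox5a (0.84) had both later replicates above both earlier ones in 8 of 8 groups. Cox7a2l (-0.75) and Ndufaf5 (-0.74) had them below in 7 of 8. Within replicates 1 and 2, the median LPS change of the members was -0.23 with 1 member called (higher). Within replicates 3 and 4 it was -0.65 with 48 called lower and 1 higher. The share of all genes called in these subsets is not given here, so the counts cannot be set against it. Single libraries of either group moved the number of calls: without vehicle replicate 1 or 2 it was 25 or 22, without vehicle replicate 3 or 4 it was 6 and 6, without LPS replicates 1, 2 or 4 it was 8, 8 and 5, and without LPS replicate 3 it was 12. On leaving out 1 library, the calls of Uqcr11, Atp5e, Ndufb2, Ndufb11 and Cox7a1 were kept in 8 of 8 fits. Those of Cox4i1 and Uqcr10 were kept in 4, those of Cox5b, Atp5l, Ndufb8, Uqcrfs1 and Cox6a2 in 3 and that of Cox8a in 2. What replicates 1 and 2 differ in from replicates 3 and 4 was not tested.

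Few other genes of the pathway were called without the replicate block. Among complex IV assembly factors 3 of 20 fell, Cox14 (-0.82), Cox16 (-0.82) and Coa3 (-0.83), with a median of -0.27. Of 4 complex V assembly factors Tmem70 fell (-0.54), and of 3 subunits that the names miss, Usmg5 of the ATP synthase fell (-0.61), while 2010107E04Rik had -1.03 ± 0.54 and was called with the block. None of 14 complex I, 4 complex II and 6 complex III assembly factors tested was called. None of 16 citric acid cycle genes (median 0.02), of 7 electron carrier genes, or of 6 tested subunits of the mitochondrial genome (median -0.10) was called either. With the block, calls among complex III assembly factors were 2 lower, among complex IV assembly factors 6 lower and 1 higher, among citric acid cycle genes 1 lower and 1 higher, among electron carrier genes 1 lower, among subunits of the mitochondrial genome 1 higher, among carriers 3 lower and among regulators 3 higher and 1 lower. The mitochondrial phosphate carrier Slc25a3 fell (-0.92), as 1 of 7 carriers. Of 11 regulators Gabpb1 rose (0.50), and Nrf1 (0.02) and Ppargc1b (-0.16) were not called. For reference, 6 of 6 LPS response genes rose (median 6.80), 6 of 8 proliferation genes rose (median 1.16), and of 11 microglial markers 2 rose and 4 fell. Of 8 markers of neurons, oligodendrocytes, endothelium and mesenchyme, Mbp, a myelin gene, was the single one tested and fell (-0.91), and their summed level was 4.28 to 7.86 CPM in vehicle and 4.21 to 4.90 CPM in LPS scramble. Mog, Snap25, Cldn5 and Col1a1 were at 0 in at least 27 of 32 libraries. Rbfox3, Pdgfrb and Pecam1 were at 0 in 21, 12 and 5 libraries, and reached 0.859, 0.881 and 3.52 CPM. The parts of proliferation and of these markers in the result were not tested.

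The promoters of members were searched for motifs of known regulators of these genes, because many members lay below 0 together. In RefSeq windows from 250 bases before to 50 after the start (GRCm38.p6; 75 windows of 70 matched members), both strands were searched for GCGCATGC (nuclear respiratory factor 1, NRF1, whose letters overlap their own reverse), CCGGAAGT (the ETS family, which includes GABPA) and AAGATGGCG (YY1). NRF1 letters were in 16% of member windows against 2.71% of 32851 windows, ETS letters in 6.67% against 3.89% and YY1 letters in 9.33% against 1.40%. Uqcr11 held both NRF1 and ETS letters, and its contexts are shown on the minus strand of the gene, motif in capitals, with those of Cox8a (minus strand) and the assembly factor Ndufaf4 (plus strand).
Uqcr11, NRF1, chr10:80406808-80406835: tcgccttcacGCATGCGCtatacgtctg
Uqcr11, ETS, chr10:80406870-80406897: tctctcctccCCGGAAGTagatgtcaat
Cox8a, ETS, chr19:7217605-7217632: tttccgaaatACTTCCGGctcgggcgtc
Ndufaf4, NRF1, chr4:24898074-24898101: cccctggtgtGCGCATGCtccgtgcgta

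With and without NRF1 or YY1 letters the medians of the LPS change lay close together: the median was -0.51 over 12 members with NRF1 letters against -0.49 over 58 without, and -0.50 over 7 with YY1 letters against -0.49 over 63 without. The 5 members with ETS letters had -0.62 against -0.49. No test was made of these differences.

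Each mimic was then compared with scramble. The 3 mimic groups share the same 4 scramble libraries within a treatment, so their values are not independent of each other. Under LPS, few members were called without the replicate block.

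With miR-7a under LPS, Cox6a2 was the single member called. It was at 10.4, 7.53, 13.5 and 16.4 CPM in miR-7a libraries, below each scramble library (17.9 to 35.3 CPM), and fell by 1.14 ± 0.27 (adjusted p = 0.0484; with the block -1.13, adjusted p = 0.000116). That is 1 of 86 members, when 2.93% of 13098 genes were called, 1.26% lower. The median of members was -0.12 against 0.01 over all genes. With the block, 9 members fell and 1 rose, against 8.32% of genes called lower and 7.44% higher; those added were Cox6a1, Ndufs8, Ndufv2, Ndufa6, Ndufb10, Ndufa9, Cox6b1 and Uqcr11, lower by 0.32 to 0.41, and Ndufaf4, higher by 0.55. Cox6a2 has no miR-7a match in its longest untranslated region, and Cox6a1 has one in its principal transcript. The 6 members with a miR-7a match had a median of -0.054 and no call, against -0.12 over the 80 without. The call was kept without scramble replicate 2 or miR-7a replicate 4, and lost without each of the other 6 libraries (-1.22 to -0.94). Cox6a2 in the vehicle comparison had -0.68 ± 0.66, and the interaction was -0.51 ± 0.73 (adjusted p = 0.964), so a difference between treatments was not detected. Without replicates 2 to 4 of vehicle miR-7a these values of Cox6a2 were -1.07 ± 1.00 and -0.069 ± 1.06.

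With miR-29a under LPS, the assembly factor Ndufaf4 rose. It was at 13.2, 9.09, 15.1 and 10.0 CPM, above all scramble libraries at 7.40, 6.73, 6.61 and 5.71 CPM (0.89 ± 0.21, adjusted p = 0.0349). It was the single call among 85 members tested, against 5.04% of 13361 genes called, 2.26% higher. The median of members was -0.03 against 0.01. With the block 6 members rose and 6 fell, against 9.63% of genes higher and 9.87% lower, and Ndufc1 (0.51), Cox6c (0.39), Ndufs8 (-0.46) and Ndufa9 (-0.40) were among the added calls. Without LPS miR-29a replicates 1 or 3, or without any 1 scramble library, Ndufaf4 was not called (0.71 to 0.92). Ndufaf4 had 0.60 ± 0.21 with miR-7a under LPS, called only with the block, and 0.50 ± 0.31 with miR-29a in vehicle cells without a call. The 4 members with a miR-29a match in the longest untranslated region had a median of -0.11 and no call, and the 3 with one in the principal transcript -0.13 and no call.

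With miR-146a under LPS, no member was called, whereas 2.29% of 12640 genes were. At an unadjusted p under 0.05 there were 2 members, Ndufa12 (-0.59) and Ndufaf7 (-0.58), and edgeR and DESeq2 called 0. The median was -0.13 against -0.01. With the block 6 members fell, against 7.52% of genes called lower: Ndufa12, Ndufaf7, Ndufb4, Atp5b, Uqcrq and Atp5o, by 0.35 to 0.64.

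In vehicle cells, no member was called with miR-7a, when 0.171% of 11129 genes were called. No member had an unadjusted p under 0.05, edgeR and DESeq2 called 0, and the median of 84 members was -0.09 against -0.01 over all genes. Without replicates 2 to 4 of vehicle miR-7a the median was -0.07 with 0 called, the lone library being assumed to vary like scramble.

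With miR-29a in vehicle cells no member was called either, but 79 of 85 lay below 0 with a median of -0.41, against 0.00 over all genes. Of 11684 genes, 0.0171% were called; 22 members had an unadjusted p under 0.05, and edgeR and DESeq2 called 0. Shorter genes were lower in general: Spearman's rho between transcript length and log2 fold change was 0.57 over the 85 members and 0.39 over 10352 other genes, and under 600 bases the median was -0.59 for members and -0.51 for other genes. In 9 members all miR-29a libraries were below all scramble libraries, against 3.27% of genes. Within replicates 1 and 2 the median was 0.00, and within replicates 3 and 4 it was -0.83 with 34 members called lower. For these subsets the share of all genes called is not given here. Without scramble replicate 3 the median over the 85 members was -0.19. Scramble replicates 3 and 4 held the highest summed level of members of all 32 libraries.

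With miR-146a in vehicle cells 5 of 85 members fell (5.88%), against 2.54% of 11786 genes called, 1.43% lower. The median was -0.45 against -0.04, and 18 members did not overlap, all lower, against 8.87% of genes. Length moved with these values too, with a rho of 0.27 over members and 0.42 over 10342 other genes, and under 600 bases the medians were -0.60 for members and -0.54 for other genes. The part of length in either comparison was not tested. In miR-146a libraries structural RNA genes took 3.81 to 7.27% of the counts, against 6.71 to 11.9% in scramble. Of 8 proliferation genes 2 were called lower, with a median of -0.33. The parts of structural RNA and proliferation were not tested. Uqcrq, a small complex III subunit, was at 108, 126, 196 and 149 CPM in scramble and 72.4, 83.0, 73.5 and 64.9 CPM in miR-146a libraries. No library of the mimic reached scramble (-0.93 ± 0.19, adjusted p = 0.0332). Ndufb8 was at 134, 139, 221 and 163 CPM in scramble and 116, 88.4, 93.7 and 78.9 CPM with miR-146a, also without overlap (-0.79 ± 0.19, adjusted p = 0.0488). The other 3 were Uqcr10 (-0.82), Ndufv1 (-0.72) and Ndufs3, a core subunit of complex I (-0.66), with adjusted p between 0.0405 and 0.0455.

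Of the called members, Uqcrq has an 8-base miR-146a match in its principal transcript, and the match of Ndufb8 lies outside its principal transcript. Over the 8 members with any miR-146a match in the longest untranslated region the median was -0.33 with 2 called, and over the 77 without it was -0.46 with 3 called. With principal transcripts alone these were -0.31 over 5 members with 1 called and -0.46 over 80 with 4 called. Under LPS, Uqcrq was at 140, 106, 160 and 116 CPM in scramble and 141, 74.3, 109 and 80.2 CPM in miR-146a libraries. Those groups overlapped and Uqcrq had -0.35 ± 0.21 (adjusted p = 0.424); Ndufb8 had -0.18 ± 0.22 (adjusted p = 0.716). Their interactions with treatment, 0.55 ± 0.29 and 0.59 ± 0.30, were not called.

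The number of vehicle miR-146a calls depended on nearly every library. Within replicates 1 and 2 the median was -0.10 and 0 members were called, and within replicates 3 and 4 it was -0.78 with 53 called lower. Without scramble replicate 1 there were 17 calls, and without any 1 of the other 7 libraries there were 0. For these fits and subsets the share of all genes called is not given here. The log2 fold changes stayed below 0 on leaving out 1 library, with Uqcrq from -1.06 to -0.78, Ndufb8 from -0.88 to -0.65 and the median of the members from -0.58 to -0.28 (without scramble replicate 3).

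LPS was also compared with vehicle within each mimic. In miR-7a cells 16 of 85 members fell (18.8%) and none rose, against 6.75% of 11877 genes called, 3.99% lower. The median was -0.44 against 0.03, and 21 members were lower without overlap, against 6.42% of genes. Atp5e was at 173, 404, 602 and 495 CPM in vehicle and 101, 68.3, 110 and 110 CPM with LPS. All LPS libraries were below vehicle, and Atp5e fell by 1.94 ± 0.33 (adjusted p = 0.00485). Uqcr11 was at 76.2, 78.1, 96.9 and 55.4 CPM and with LPS at 38.4, 23.5, 34.5 and 28.8 CPM (-1.35 ± 0.20, adjusted p = 0.00203). Cox7a1 (-2.35), Atp5j2 (-1.06) and Ndufb2 (-1.06) complete the 5 largest falls among the members called. With replicate 1 as the lone vehicle miR-7a library the median was -0.47 and 0 members were called. Atp5e then had -0.84 ± 0.30, Uqcr11 -1.30 ± 0.30, Cox7a1 -2.10 ± 0.51, Atp5j2 -0.96 ± 0.32 and Ndufb2 -0.92 ± 0.37. Leaving out 1 library gave 6 to 22 calls: 22 without LPS miR-7a replicate 1, 8 and 9 without its replicates 2 and 4, and 8 and 6 without vehicle miR-7a replicates 2 and 3. The calls of Atp5e, Uqcr11, Cox7a1 and Atp5j2 were kept in 8 of 8 such fits and that of Ndufb2 in 2.

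In miR-29a cells members moved both ways. Of 85 tested, 5 rose and 7 fell (14.1%), against 26.7% of 12271 genes called, 13.5% higher and 13.3% lower, and the median was -0.11 against 0.00. Cox6a2 was at 3.95, 5.79, 8.36 and 6.92 CPM in vehicle and 20.3, 17.9, 20.9 and 31.3 CPM with LPS. Every LPS library was higher (1.77 ± 0.27, adjusted p = 0.000802). The others that rose were the assembly factors Ndufaf2 (0.94) and Ndufaf5 (0.90) and the complex III subunits Uqcrq (0.70) and Uqcrb (0.62). Among the members called lower, the 5 with the largest falls were Cox7a1 (-2.01), Atp5d (-0.89), Atp5g1 (-0.82 ± 0.24), Atp5e (-0.78) and Atp5sl (-0.54). With the block 8 rose and 21 fell, against 20.1% of genes higher and 21.5% lower. Leaving out 1 library gave 5 to 15 calls: 7 and 6 without LPS miR-29a replicates 1 and 3, and 6 and 5 without vehicle miR-29a replicates 2 and 3. Of 8 such fits, the call was kept in 8 for Cox6a2, Cox7a1 and Atp5d, in 7 for Uqcrq and Atp5e and in 6 for Atp5g1. It was kept in 3 for Ndufaf2, in 2 for Ndufaf5 and in 1 for Uqcrb and Atp5sl.

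In miR-146a cells Cox6a2 was the single call of 86 members, against 4.49% of 12114 genes. It was at 4.45, 7.80, 8.34 and 6.23 CPM in vehicle and 19.8, 15.1, 25.7 and 39.5 CPM with LPS. The groups did not overlap (1.60 ± 0.34, adjusted p = 0.0171), and the call was lost without vehicle miR-146a replicate 3 (1.71) or 4 (1.53). The median of members was -0.18 against -0.02. Cox7a1 had -2.73 ± 0.77 (adjusted p = 0.0655).

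Across the 4 LPS comparisons, Cox6a2 was therefore called in scramble, miR-29a and miR-146a cells and had 1.03 ± 0.41 (adjusted p = 0.18) in miR-7a cells (1.45 ± 0.60 without replicates 2 to 4 of vehicle miR-7a), and complex II kept medians from -0.11 to -0.02. Whether a mimic changed the LPS effect was tested as an interaction with 16 libraries. No member was called for any of the 3 mimics, nor by edgeR or DESeq2 (0 each). Members with p below 0.05 before adjustment numbered 0 for miR-7a, 6 for miR-29a and 4 for miR-146a, and of all genes 0.0737%, 0.0161% and 0.00804% were called in the same order. The medians of members were -0.03, 0.34 and 0.29, against 0.01, -0.02 and -0.01 over all genes (for miR-7a without replicates 2 to 4 of its vehicle group -0.046, with 0 called), and 73 of 84 and 70 of 85 members lay above 0 for miR-29a and miR-146a. These estimates share the 8 scramble libraries.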

How the data were processed

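Total RNA libraries (CORALL kit after ribosomal RNA depletion, single-end) of 8 groups with 4 libraries each were processed by the authors with the nf-core RNA-seq pipeline on GRCm38. The deposited values are estimated counts per gene, from which most decimal marks had been lost: of 590874 values above 0, 28.5% were given decimals again from the gene's level in the other libraries, and 1.19% stayed uncertain (posterior under 0.9) and were left out. The restored estimated counts were rounded to whole numbers. No table of the authors' comparisons was used. Per the labels, edgeR and limma were used upstream; the versions used for these libraries are not given in the sources used here.

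Genes were filtered with filterByExpr, scaled by the trimmed mean of M values (TMM) and tested per pair of groups with limma-voom (limma 3.58.1, edgeR 4.0.16, R 4.3.3) with Benjamini-Hochberg adjustment over all genes tested; a call needed an adjusted p under 0.05 and an absolute log2 fold change over 0.3. CPM are TMM-scaled over the 32 libraries. Library totals of 1207404 to 20668447 counts put 3 counts at 0.144 to 4.06 CPM on this scale, counting error only. Interactions used 16 libraries. The restoration and the limma-voom fit were first run on simulated data, and the outcome is not given here.

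The replicate number was tried as a block. Deviations of libraries with the same number correlated over 0.1 in every pair for LPS against vehicle with scramble (lowest 0.127). The same held for the 3 mimics against scramble under LPS (0.180, 0.210 and 0.143) and for LPS against vehicle with miR-29a (0.142). The numbers were taken to pair those libraries. This rests on these correlations and the numbers in the sample titles, which are shared by all groups. The cut of 0.1 was set here, and libraries with different numbers were not correlated. Whether the numbers also pair libraries in the other comparisons is therefore not settled. Other alternatives were edgeR's quasi-likelihood test, DESeq2 1.42.0, other filters, size factors without structural RNA genes, all groups in 1 fit, values as deposited, and leaving out libraries. Named were the called members (up to 12 per direction for LPS against vehicle with scramble, 5 elsewhere), a set of core subunits and tissue paralogs, and up to 3 called genes per pathway list. Members, lists and this rule were chosen with earlier results of these data known. Seed matches (in each gene's longest annotated 3′ untranslated region, and in the principal transcript), promoter motifs and gene models were read from GENCODE and RefSeq tables of GRCm38.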

Additional observations from a re-analysis of the deposited data

Results flagged for a closer look

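In 5 of 128 groups of 4 libraries, the highest or lowest library stood apart from the other 3 (Dixon's criterion), fewer than the 1 in 20 that chance gives. Cox7a1 was at 7.60 CPM in replicate 3 of vehicle miR-7a, with the other 3 libraries at 3.43 to 4.06 CPM. Atp5l was at 80.3 CPM in replicate 4 of vehicle miR-29a, with the others at 108 to 109 CPM. Cox4i1 was at 511 CPM in replicate 1 of LPS miR-29a, with the others at 298 to 328 CPM. The median log2 CPM of the members was 6.77 in replicate 3 of vehicle miR-7a, against 6.445 to 6.495 in the others. Structural RNA genes took 4.31% of the counts in replicate 1 of vehicle miR-7a, against 35.1 to 38.7% in the others. The part of the structural RNA share in the member values was not tested.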

How the results depend on the processing

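There were 36 named calls, each of 1 member in 1 comparison. Members called in several comparisons count more than once, and the comparisons share libraries. Direction and call were kept in 36 with the replicate block, 36 with DESeq2 and 36 without structural RNA genes in the scaling. They were kept in 34 with edgeR, 32 without the filter on low counts, 34 of 34 at a posterior of 0.99 and 34 of 34 in 1 fit over all 8 groups. Leaving out 1 library kept the call in 165 of 288 fits. Within replicates 1 and 2 alone 4 were kept, and within replicates 3 and 4 alone 31; these subsets and the omission of vehicle miR-7a replicates 2 to 4 were chosen after seeing the data. No named call changed direction except with the values as deposited. The cause of the other changes was not tested.

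The number of members called changed as follows. Apart from the counts in brackets and those with the block, the shares of all genes called are not given here. For LPS against vehicle in scramble cells (13) it was 43 with the block, 27 with DESeq2, 26 with all 8 groups, 0 as deposited, 1 in replicates 1 and 2 and 49 in replicates 3 and 4. For miR-7a under LPS (1) it was 10 with the block and 0 in replicates 1 and 2. For miR-29a under LPS (1) it was 12 with the block, and 0 without the filter, as deposited, in replicates 1 and 2 and in replicates 3 and 4. For miR-146a under LPS (0) it was 6 with the block. For LPS against vehicle in miR-29a cells (12) it was 29 with the block, 2 as deposited and 1 in replicates 1 and 2. For miR-7a in vehicle cells (0) it was 2 in replicates 3 and 4, and for miR-29a (0) it was 1 as deposited and 34 in replicates 3 and 4. For miR-146a in vehicle cells (5) it was 19 with DESeq2, 13 with all 8 groups, 8 without the filter, 1 as deposited, 0 in replicates 1 and 2 and 53 in replicates 3 and 4. For LPS against vehicle in miR-7a cells (16) it was 1 as deposited, 4 in replicates 1 and 2 and 0 without vehicle miR-7a replicates 2 to 4, which leaves fewer samples. For LPS against vehicle in miR-146a cells (1) it was 2 with all 8 groups, and 0 as deposited and in replicates 1 and 2. The interaction of miR-7a (0) had 1 as deposited.

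Same-numbered libraries did not all correlate over 0.1 in the remaining comparisons (in vehicle cells lowest -0.075 for miR-7a, 0.093 for miR-29a and 0.034 for miR-146a, 0.080 and 0.064 for LPS in miR-7a and miR-146a cells). With the replicate block the calls there were 1, 0, 24, 27 and 3, in place of 0, 0, 5, 16 and 1. Of all genes, the block called 247 of 11129, 72 of 11684, 1454 of 11786, 1136 of 11877 and 1122 of 12114 in the same order. In the interactions the block gave 0 calls. It took no call from a named member.

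Leaving out 1 library gave 5 to 25 calls for LPS in scramble cells, 0 to 1 for miR-7a and 0 to 1 for miR-29a under LPS, 0 to 1 for miR-7a and 0 to 17 for miR-146a in vehicle cells, and 6 to 22, 5 to 15 and 0 to 1 for LPS in miR-7a, miR-29a and miR-146a cells. The median of the members changed sign on leaving out 1 library where it lay near 0: from -0.13 to 0.059 for miR-29a and -0.25 to 0.035 for miR-146a under LPS, -0.22 to 0.047 for miR-7a in vehicle cells, -0.20 to 0.0064 and -0.28 to 0.0083 for LPS in miR-29a and miR-146a cells, and -0.17 to 0.11 for the miR-7a interaction. The highest value came without replicate 2 of the LPS mimic group in 4 of these, without vehicle scramble replicate 3 for miR-7a in vehicle cells and without its replicate 2 for the interaction. The median of the members in vehicle miR-29a was 0.0035 in replicates 1 and 2 and -0.83 in replicates 3 and 4, and in vehicle miR-146a -0.10 and -0.78. With values as deposited, a scale in which lost decimal marks inflate single values, the median for LPS in miR-7a cells was 0.35 and for the miR-7a interaction 0.31.

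As deposited, the log2 fold change changed sign for LPS in scramble cells in Atp5e (1.31), Ndufb2 (1.38), Cox5b (0.50), Uqcr10 (1.42), Ndufb8 (2.55), Ndufv1 (2.43) and Cox5a (3.39), for Ndufaf4 with miR-29a under LPS (-5.04), for Uqcrq (1.09) and Ndufb8 (3.54) with miR-146a in vehicle cells, for Atp5j2 with LPS in miR-7a cells (5.43) and for Atp5e (1.55) and Atp5sl (0.42) with LPS in miR-29a cells. Some members that were not called also changed sign for LPS in scramble cells. Ndufa4 had 0.084 in replicates 1 and 2, and Sdha had 0.014 without the filter and 0.064 in replicates 3 and 4. On leaving out 1 library, Sdha (-0.034 to 0.020), Sdhb (-0.16 to 0.019) and Sdhc (-0.35 to 0.018) changed sign. Depth limits what can be seen for Cox7a1, which had 3 to 26 reads in LPS scramble libraries.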

Other observations

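The genes named here were chosen after their values were seen. AA467197, a paralog of Ndufa4 that can take its place in complex IV, had its highest levels in LPS cells with 2 of the mimics. It was at 0, 0.210, 0.367 and 0.432 CPM in LPS scramble and at 4.79, 0.814, 3.06 and 2.72 CPM in LPS miR-7a. In LPS miR-29a it was at 1.00, 1.44, 1.93 and 1.80 CPM, while LPS miR-146a reached at most 0.316 CPM and vehicle miR-7a at most 0.633 CPM. Low levels of AA467197 could be missed, since 3 counts are 0.571 to 4.06 CPM in vehicle miR-7a and 1.11 CPM in LPS scramble replicate 1. It rose with miR-7a (2.93 ± 0.61, adjusted p = 0.0292) and with miR-29a (2.39 ± 0.41, adjusted p = 0.0101) under LPS by limma-voom. Ndufa4 itself was not called in those comparisons, except with the block for miR-29a (0.35). Cytochrome c (Cycs), which carries electrons from complex III to IV, rose with miR-29a under LPS (0.81 ± 0.18) and with LPS in miR-29a cells (1.26 ± 0.22), and had 0.87 with miR-7a under LPS.

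Subunits encoded in the mitochondrial genome fell with LPS in miR-7a cells: mt-Nd1, mt-Nd2, mt-Nd4, mt-Nd4l, mt-Nd5, mt-Nd6, mt-Co2, mt-Co3 and mt-Cytb were called, 9 of 12 tested, when 3.99% of all genes were called lower, from -1.78 (mt-Nd2) to -1.15 (mt-Co2). The vehicle side of that comparison holds the libraries with 35.1 to 38.7% structural RNA, whose part was not tested. Without those 3 libraries 0 of 13 were called and the median was -1.55, against -1.45 with them. With miR-29a under LPS, all 9 tested lay above 0, from 0.35 (mt-Co1) to 1.02 (mt-Nd4l) with a median of 0.83, and mt-Co3 was the single call (0.86). Same-numbered libraries correlated over 0.1 in this comparison, and with the replicate block all 9 were called higher, when 9.63% of all genes were. The other comparisons went both ways, with no call without the block. In vehicle cells the median was 1.23 for miR-146a, 0.91 for miR-7a and 0.80 for miR-29a. Under LPS it was 0.23 for miR-146a and -0.50 for miR-7a. For LPS against vehicle it was -0.10 over 6 tested in scramble, 0.11 over 13 in miR-29a and -0.92 over 10 in miR-146a cells. These LPS medians cover different genes, so they are not directly comparable. The summed level of all 13 was 17786.2 to 33445.5 CPM in vehicle scramble and 9337.61 to 24652.4 CPM in LPS scramble, with overlap. With the block, 5 of 9 were called lower for miR-7a and 3 of 9 higher for miR-146a under LPS. In vehicle cells 6 of 9, 4 of 9 and 5 of 10 were called higher for miR-146a, miR-7a and miR-29a. For LPS in miR-146a cells 8 of 10 were called lower. Of all genes, the block called in either direction 2064 of 13098, 1770 of 12640, 1454 of 11786, 247 of 11129, 72 of 11684 and 1122 of 12114 in the same order. In the last 4 of these comparisons same-numbered libraries did not all correlate over 0.1. For LPS in scramble and miR-29a cells the block called 1 higher in each.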
